A study of Rattus norvegicus with 50 samples.

Results

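Expression of the 6 monocyte-attracting CC chemokine genes Ccl2, Ccl7, Ccl12, Ccl3, Ccl4 and Ccl5 was followed in rat lung after inhalation of titanium dioxide (TiO2) nanoparticles. The genes were taken by name: every gene spot of the arrays whose gene name was 1 of these 6 was used, and all 6 were among the 25208 genes tested. The accessory lobe of the lung was collected from 50 male F344 rats, an inbred laboratory strain, that were 12 weeks old at exposure. Control rats inhaled air, and exposed rats inhaled an aerosol of TiO2 P25 at 10 mg/m3 through the nose, 6 hours per day on 5 days per week for 4 weeks. Lungs of both arms were taken at D0, when inhalation had just ended, and at D3, D28, D90 and D180, named for the days since then (3, 28, 90 and 180), with 5 control and 5 exposed rats in each of the 10 groups and 1 array per rat. RNA came from the whole lobe, so a change in the number of cells of a type and a change in RNA per cell cannot be told apart. The 6 genes of the lung epithelium checked as tissue markers, among them Sftpc and Scgb1a1, were well above background on every array, and none was called at any day.

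CC chemokines are small secreted proteins that draw white blood cells along a concentration gradient by binding receptors on their surface. Ccl2, Ccl7 and Ccl12 are monocyte chemoattractant proteins and signal through Ccr2, the receptor by which monocytes leave the blood and bone marrow. Ccl3 and Ccl4 are macrophage inflammatory proteins, made by activated macrophages among other cells, and Ccl5 is made in large part by T and NK cells. Ccl3 and Ccl5 act on Ccr1, and Ccl5 also on Ccr3. In the lung, alveolar macrophages and epithelial cells that meet particles are known sources of several of these ligands.

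Each gene was read by a single probe of 60 bases, whose positions the array files give on rat build rn4 without any exon or UTR annotation. The probes of Ccl2 (chr10:70257919-70257978, + strand), Ccl7 (chr10:70268674-70268733, + strand) and Ccl12 (chr10:70322447-70322506, + strand) lay close together. The probes of Ccl5 (chr10:71605854-71605913, - strand), Ccl3 (chr10:71744611-71744670, - strand) and Ccl4 (chr10:71760265-71760324, + strand) formed another group on the same chromosome. In the RefSeq gene table of assembly GRCr8 the genes followed each other along chromosome 10 in the order Ccl2, Ccl7, Ccl11, Ccl12 and Ccl1, and then Ccl5, Ccl9, Ccl6, Ccl3 and Ccl4. The first 30 bases of each probe are given because every value below is the signal of that 1 probe.
Ccl2: tttatttctctgtgaatcctggttcaacac
Ccl7: ttagacatgaaaacttcaactccaaagccc
Ccl12: ccttccccatggacagtgcgatagttattt
Ccl5: tatcataccatagagattataactgtgtcc
Ccl3: gtgtttggtgacaattattctaggtagacg
Ccl4: tctcttacacctcccggaagattcatcgga

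A promoter sequence was at hand in RefSeq (GRCr8) for 2 of the 6 genes, Ccl7 and Ccl12, and these 2 are shown for that reason. The 250 bases before the start of each are given with motif matches in capitals, at chr10:67513845-67514094 for Ccl7 and chr10:67567626-67567875 for Ccl12, both on the + strand.
Ccl7: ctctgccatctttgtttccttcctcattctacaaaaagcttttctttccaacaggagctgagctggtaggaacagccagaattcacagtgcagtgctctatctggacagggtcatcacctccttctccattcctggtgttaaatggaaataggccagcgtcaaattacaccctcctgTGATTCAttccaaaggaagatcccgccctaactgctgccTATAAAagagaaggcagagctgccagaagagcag
Ccl12: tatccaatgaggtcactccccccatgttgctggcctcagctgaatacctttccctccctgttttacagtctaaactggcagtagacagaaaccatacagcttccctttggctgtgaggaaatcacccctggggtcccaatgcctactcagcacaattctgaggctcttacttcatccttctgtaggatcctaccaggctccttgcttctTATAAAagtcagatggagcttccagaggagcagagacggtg
In Ccl7 the capitals mark the AP-1 motif TGANTCA, which reads alike on both strands, 73 to 67 bases before the start, and the TATA motif TATAAA, 34 to 29 bases before it. In Ccl12 they mark TATAAA, 41 to 36 bases before the start. Of the 33469 RefSeq rat promoters of the same length, 6.34% held TGANTCA and 12.9% held TATAAA on either strand. The interferon motif (GAAA, NN, GAAA), held by 3.41% of promoters, was not in these letters of either gene. A kappaB motif was searched in 1 form, held by 3.54% of promoters and not in these letters of either gene, and its other forms were not searched. A match of letters is a description of the sequence and not a binding site.

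The signal is given below as normalized log2 processed signal, which is the background-corrected fluorescence of the probe after quantile normalization between arrays. A log2 difference of 1 is a doubling. Ccl2 and Ccl3 had 10 spots on each array and the other genes 2 spots. The median SD between the spots of 1 array was 0.089 for Ccl2 and at most that for the others, and 14 of the 500 spot readings of Ccl2 and 6 of those of Ccl3 were left out as flagged outliers. Spots disagreed widely only for Ccl4 on the array of exposed rat 3 at D28 (SD 0.859). All spots of the 6 genes were well above background on all 50 arrays and none was saturated, so every change below was measured on both sides. Ccl12 was the dimmest. Each signal was also set against the level that 95% of the same array's negative control spots lay under. The smallest ratio over the 50 arrays was 1.63 for Ccl12, 8.24 for Ccl7 and at least 25.8 for the other 4. These smallest ratios came from the array of exposed rat 4 at D28, whose negative control level was the highest (40.6). The median ratio of Ccl12 was 19.9, and its lowest signal, 36.5 in control rat 1 of D0, stood against a level of 4.23. Genes were called over- or under-expressed (DEGs) at an adjusted p under 0.05 in limma over all genes and a change of at least 1.5-fold. Of the 7 slides, 4 carried the rats of the 3 early days and 3 those of D90 and D180, and exposed rat 1 of D3 alone lay with the late rats. Median array signals ran from 198.0 to 474.

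At D0 the genes for the 3 Ccr2 ligands Ccl2, Ccl7 and Ccl12 were 5.87-, 6.15- and 7.20-fold higher in exposed than in control lungs. Ccl3 and Ccl4 rose less, by 1.82- and 1.63-fold, and Ccl5 was not called. In all, 5 of the 6 genes were over-expressed, where 2.77% of all genes were. The values of those 5 genes did not overlap between the groups, all exposed rats lying above all control rats, as they did for 4.76% of all genes. None was under-expressed, where 1.51% of all genes were.

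Ccl2, the main chemoattractant of Ccr2-bearing monocytes, read 9.77, 10.36, 9.90, 10.25 and 10.62 in the 5 control rats at D0 and 12.64, 12.39, 13.09, 12.41 and 13.13 in the 5 exposed rats, in log2 signal. The lowest exposed rat was above the highest control rat by more than the range of either group. The log2 change was 2.55 (95% interval 2.09 to 3.02, adjusted p = 1.05e-11). Ccl7, a ligand of Ccr2 and of other CC receptors, read 6.81, 7.10, 7.06, 7.74 and 8.10 in control rats and 9.69, 9.77, 10.55, 9.76 and 10.14 in exposed rats. Control rat 5 had the highest Ccl7, Ccl2 and Ccl12 among the controls of D0 and still lay under every exposed rat. The Ccl7 change was 2.62 (95% interval 2.13 to 3.11, adjusted p = 3.52e-11). Ccl12, named as a monocyte chemoattractant protein in mouse, read 5.19, 6.31, 6.28, 6.14 and 7.02 in control rats and 8.48, 8.89, 9.88, 8.53 and 9.40 in exposed rats, and control rats spread more widely than for the other genes (SD 0.65). Its change of 2.85 (95% interval 2.01 to 3.68, adjusted p = 1.36e-06) had the widest interval. With normal-exponential correction of the background it was 2.02 and 2.15 in the deposited series matrix, lower in fold by more than 1.5 times and still called.

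Ccl3, a macrophage inflammatory protein, read 12.65, 13.23, 13.04, 12.54 and 12.83 in control rats and 13.52, 13.32, 13.99, 13.72 and 14.06 in exposed rats at D0. The gap was narrow, with the highest control rat at 13.23 and the lowest exposed rat at 13.32. The change was 0.87 (95% interval 0.55 to 1.18, adjusted p = 6.15e-05). Ccl4, the other macrophage inflammatory protein, read 9.50, 9.73, 9.47, 9.56 and 9.87 in control rats and 10.19, 10.16, 10.58, 10.32 and 10.40 in exposed rats, with a change of 0.70 (95% interval 0.46 to 0.95, adjusted p = 2.82e-05). Ccl5 spanned from 14.35 to 14.70 in control and from 14.27 to 14.87 in exposed rats, so that the 2 groups covered the same levels. Its change was 0.01 (95% interval -0.25 to 0.28, adjusted p = 0.984), and the upper end of that interval was 1.21-fold.

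**Figure D1:**
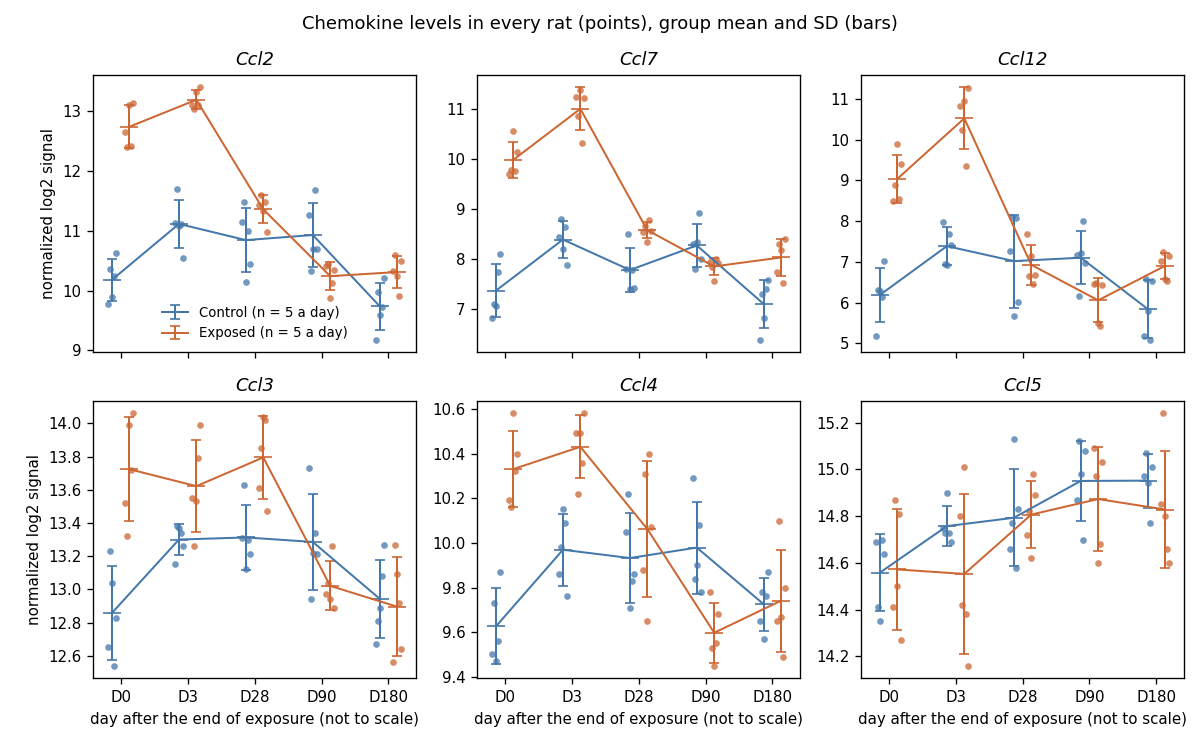
Normalized log2 signal (vertical axis) of the 6 chemokine genes at each day after the end of exposure (horizontal axis), with 1 point per rat, control in blue and exposed in orange, and bars for the mean and SD of 5 rats. For Ccl2, Ccl7 and Ccl12 the exposed rats of D0 and D3 stand apart from all controls of the same day (Ccl2 means 12.73 against 10.18 at D0), and from D28 on the 2 arms overlap.

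At D3 Ccl2, Ccl7 and Ccl12 were still over-expressed, by 4.20-, 6.14- and 8.78-fold, and these 3 of the 6 genes were called where 1.98% of all genes were. Ccl4 was 1.38-fold higher, under the fold limit, and Ccl3 and Ccl5 did not pass the test. For 4 of the 6 genes, Ccl4 included, all exposed rats lay above all control rats, as for 3.36% of all genes. None was under-expressed, against 1.51% of all genes.

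Ccl2 at D3 read 11.12, 11.70, 11.07, 11.11 and 10.55 in control rats and 13.10, 13.03, 13.31, 13.09 and 13.39 in exposed rats. The exposed rats lay within 0.36 of each other on the log2 scale, the tightest of the 10 groups for this gene, and the change was 2.07 (95% interval 1.61 to 2.53, adjusted p = 4.65e-09). Ccl7 read 8.43, 8.79, 8.20, 8.64 and 7.87 in control rats and 11.23, 10.85, 11.38, 10.32 and 11.22 in exposed rats. Its change of 2.62 (95% interval 2.12 to 3.11, adjusted p = 7.37e-11) differed from that at D0 by less than its error, on a higher level in both arms. Ccl12 read 7.97, 6.94, 6.91, 7.69 and 7.42 in control rats and 10.83, 10.23, 10.94, 9.34 and 11.26 in exposed rats. Exposed rat 4 had the lowest Ccl7 and Ccl12 of its group, and it was still above every control rat for both genes. The Ccl12 change was 3.13 (95% interval 2.30 to 3.97, adjusted p = 3.13e-07), the largest of the 6 genes at any day. Without exposed rat 1, whose array was on another slide, the changes of Ccl2, Ccl7 and Ccl12 were 2.09, 2.56 and 3.06.

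Ccl4 at D3 read 9.86, 9.98, 10.15, 10.09 and 9.76 in control rats and 10.49, 10.22, 10.49, 10.36 and 10.58 in exposed rats, without overlap and with a change of 0.46 (95% interval 0.22 to 0.71, adjusted p = 0.00757), so that it passed the adjusted p and not the 1.5-fold limit. Ccl3 spanned from 13.15 to 13.38 in control and from 13.26 to 13.99 in exposed rats, and 4 of 5 exposed rats were above all controls (change 0.32, 95% interval 0.01 to 0.64, adjusted p = 0.217). Ccl5 was at a log2 change of -0.20 (95% interval -0.47 to 0.06, adjusted p = 0.399) and did not pass the test.

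At D28 none of the 6 genes was called by limma at an adjusted p under 0.05 and 1.5-fold, where 0.861% of all genes were over-expressed and 0.468% under-expressed. For none did the exposed rats lie wholly above the controls, as they did for 2.23% of all genes. At an unadjusted p under 0.05 in limma there were 3, namely Ccl2, Ccl7 and Ccl3, all with the higher mean in exposed rats. Of all 25208 genes, 4188 were at that level in either direction. Ccl7 was nearest to the limit. It read 7.79, 8.50, 7.40, 7.77 and 7.41 in control rats and 8.54, 8.66, 8.33, 8.77 and 8.56 in exposed rats, and control rat 2 alone reached into the exposed range. The change was 0.80 (95% interval 0.30 to 1.29, adjusted p = 0.0543), and it passed with slide as a block, with normal-exponential correction, with the stricter filter, in the series matrix values and without control rat 2 (0.98). Ccl2 read 11.14, 11.48, 10.15, 11 and 10.44 in control rats and 11.42, 11.59, 11.32, 11.47 and 10.98 in exposed rats, which overlapped (change 0.51, 95% interval 0.05 to 0.98, adjusted p = 0.236). Ccl12 read 7.26, 8.10, 5.66, 8.07 and 6.01 in control rats and 7.69, 6.66, 7.14, 6.46 and 6.67 in exposed rats. Its control rats covered a wider range than its exposed rats, with the 2 highest on 1 slide, and the change was -0.09 (95% interval -0.93 to 0.74, adjusted p = 0.936). Ccl4 was at 0.13 (95% interval -0.11 to 0.37, adjusted p = 0.639), and at 0.23 without exposed rat 3, whose spots disagreed. Ccl3 had its highest exposed mean at this day, 13.79 ± 0.25 (SD, n = 5) against 13.31 ± 0.19 in control rats, and 3 of 5 exposed rats were above all controls (change 0.48, 95% interval 0.17 to 0.80, adjusted p = 0.0730).

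At D90 the means of the 6 genes were all lower in exposed than in control rats, and none was called by limma, where 0.135% of all genes were under-expressed and 0.246% over-expressed. All exposed rats above all controls was seen for none of the 6 and for 2.2% of all genes. At an unadjusted p under 0.05 in limma there were 3, Ccl2, Ccl12 and Ccl4, beside 1793 of all 25208 genes in either direction. Ccl2 read 11.26, 10.32, 10.69, 11.67 and 10.69 in control rats and 10.41, 10.45, 9.88, 10.12 and 10.34 in exposed rats. The exposed values were close together and the control values reached above them, with control rat 4 at the top (change -0.69, 95% interval -1.15 to -0.23, adjusted p = 0.197). Ccl7 read 8.30, 7.80, 8.33, 8.91 and 7.99 and 7.93, 7.84, 7.55, 8.0 and 7.92 in the same order (change -0.42, 95% interval -0.91 to 0.07, adjusted p = 0.904). Ccl12 read 7.17, 6.17, 7.21, 7.99 and 6.96 in control rats and 6.45, 6.48, 5.50, 5.42 and 6.43 in exposed rats, with 2 exposed rats under all controls (change -1.04, 95% interval -1.88 to -0.21, adjusted p = 0.397). The Ccl12 change was smaller with normal-exponential correction (-0.60) and in the series matrix (-0.69). For Ccl4, 4 of 5 exposed rats were below all controls (change -0.38, 95% interval -0.63 to -0.14, adjusted p = 0.156).

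At D180 the means of Ccl2, Ccl7 and Ccl12 were again higher in exposed rats, with 4 of 5 exposed rats above all controls for each. None of the 6 genes was called by limma, where 0.246% of all genes were over-expressed and 0.0793% under-expressed. Ccl2, Ccl7 and Ccl12 had an unadjusted p under 0.05 in limma, as had 2028 of all 25208 genes in either direction. None of the 6 was without overlap, against 2.77% of all genes. Ccl7 read 6.38, 7.30, 6.82, 7.39 and 7.57 in control rats and 7.74, 8.29, 8.18, 7.52 and 8.40 in exposed rats, and exposed rat 4 alone fell into the control range. The change was 0.93 (95% interval 0.44 to 1.43, adjusted p = 0.0503), and it passed with slide as a block, under the stricter filter, without control rat 5 (1.05) and without exposed rat 4 (1.06). Ccl2 read 9.18, 9.98, 9.59, 9.73 and 10.21 in control rats and 10.32, 10.60, 10.24, 9.91 and 10.49 in exposed rats (change 0.57, 95% interval 0.11 to 1.03, adjusted p = 0.393). Ccl12 read 5.18, 6.59, 5.8, 5.09 and 6.54 in control rats and 7.01, 7.24, 6.59, 6.52 and 7.14 in exposed rats (change 1.06, 95% interval 0.22 to 1.89, adjusted p = 0.365). The Ccl12 change was smaller with normal-exponential correction (0.52) and in the series matrix (0.63). The 2 arms overlapped at D180 for Ccl3, Ccl4 and Ccl5, with changes of -0.05, 0.02 and -0.12 on the log2 scale. The labels number exposed rat 2 of D180 next to control rats of that day. Its labelled group was kept, and without it the changes of Ccl2, Ccl7 and Ccl12 were 0.50, 0.87 and 0.97, none called.

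**Figure D2:**
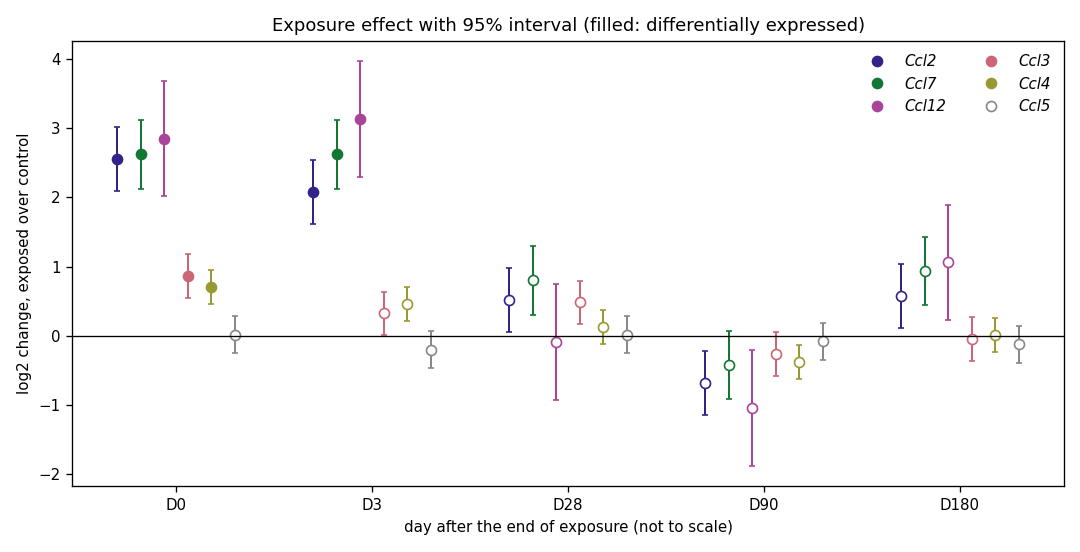
Log2 change, exposed over control (vertical axis), of each gene at each day (horizontal axis), with 95% intervals from limma over 50 arrays, filled where the gene was differentially expressed. Filled points stand at D0 for 5 genes and at D3 for Ccl2, Ccl7 and Ccl12 only, and all points at D90 lie below 0.

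Whether the exposure effect differed between days was tested as an interaction, and each later day was set against the same D0 rats. The effects at D90 and D180 came from other slides than that at D0. In those differences slide, day and age cannot be told apart. At D3 none of the 6 genes was called by limma, where 0.44% of all genes had a lower effect than at D0. Of the 6, Ccl3 had an unadjusted p under 0.05 (-0.54, 95% interval -0.99 to -0.10, adjusted p = 0.341), as had 2480 of all 25208 genes in either direction. The interval of the difference was narrower for Ccl7 (-0.70 to 0.70) than for Ccl12 (-0.90 to 1.47). By D28 the effect had fallen for 3 of the 6 genes, where 1.06% of all genes fell. The difference was -2.04 (95% interval -2.69 to -1.39, adjusted p = 4.02e-05) for Ccl2, -1.82 (95% interval -2.52 to -1.12, adjusted p = 6.95e-04) for Ccl7 and -2.94 (95% interval -4.12 to -1.76, adjusted p = 0.00125) for Ccl12. Ccl4 passed neither the adjusted p nor the 1.5-fold limit, and it was called in 6 of the 20 fits without 1 array (-0.57, 95% interval -0.92 to -0.23, adjusted p = 0.0590).

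At D90 the effect was lower than at D0 for 5 of the 6 genes, against 1.5% of all genes. These were Ccl12 at -3.89 (95% interval -5.08 to -2.71, adjusted p = 7.90e-06), Ccl2 at -3.24 (95% interval -3.89 to -2.59, adjusted p = 1.09e-09) and Ccl7 at -3.04 (95% interval -3.74 to -2.34, adjusted p = 2.32e-08), and further Ccl3 at -1.13 (adjusted p = 6.05e-04) and Ccl4 at -1.09 (adjusted p = 1.86e-05). With normal-exponential correction the Ccl12 differences were smaller, -2.17 at D28 and -2.62 at D90, and still called. At D180 it was lower for 4 of the 6 genes, against 1.34% of all genes. The difference was -1.98 (95% interval -2.64 to -1.33, adjusted p = 4.42e-05) for Ccl2 and -1.69 (95% interval -2.39 to -0.99, adjusted p = 0.00119) for Ccl7, and -0.91 (adjusted p = 0.00777) for Ccl3 and -0.69 (adjusted p = 0.0102) for Ccl4. That of Ccl12 at D180, -1.79 (95% interval -2.97 to -0.61, adjusted p = 0.0818), missed the limit here and passed it when slide entered as a block (adjusted p = 0.0237). The call of Ccl3 at D180 was lost when the fit held the arrays of D0 and D180 alone (adjusted p = 0.0564). Ccl5 was called at no day, with intervals of -0.38 to 0.38 at D28 and -0.52 to 0.24 at D180.

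The control rats, which inhaled air, did not keep 1 level over the 5 days. From D0 to D3 Ccl2 rose by 0.93 (95% interval 0.47 to 1.39, adjusted p = 0.00587) and Ccl7 by 1.02 (95% interval 0.53 to 1.52, adjusted p = 0.00467) in control rats, so that 2 of the 6 genes were higher, where 1.52% of all genes were. None was lower, against 0.813% of all genes. The control ranges of the 2 days met at a single rat for each gene, control rat 5 of D0 lying at 10.62 for Ccl2 and at 8.10 for Ccl7. Ccl12 was higher by 1.2 (95% interval 0.36 to 2.03, adjusted p = 0.0708) without being called, and it was called with the stricter filter and without that rat (1.41). Ccl12, Ccl3 (0.44) and Ccl4 (0.34) also had an unadjusted p under 0.05 from D0 to D3 in limma. So had 4485 of all 25208 genes in either direction. Between D0 and D28 none of the 6 genes was called in control rats by limma, where 1.54% of all genes were higher and 0.944% lower. Ccl2, Ccl3 and Ccl4 had an unadjusted p under 0.05 there in limma, as had 4747 of all 25208 genes in either direction. Ccl2 (0.66, 95% interval 0.20 to 1.12, adjusted p = 0.0721) was called without control rat 5 of D0 and without control rat 3 or 5 of D28.

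From D90 to D180 Ccl2 fell by 1.19 on the log2 scale in control rats (95% interval -1.65 to -0.73, adjusted p = 0.0236), where 0.0159% of all genes, 4 in number, were lower and 0.00397%, 1 gene, higher. With slide as a block 16 genes were lower and 7 higher. All control rats of D180 lay below all those of D90, a separation whose share over all genes was not counted. The call was lost without any 1 of 5 control rats, namely rat 1, 3 or 4 of D180 and rat 1 or 4 of D90 (changes from -1.34 to -1.0 over the 10 fits without 1 rat), and with the arrays of the 2 days alone. Ccl7 changed by -1.17 (95% interval -1.67 to -0.68, adjusted p = 0.0542) without being called, also with no overlap between the days. It passed when slide entered the fit as a block (adjusted p = 0.0304), under the stricter filter, and without control rat 5 of D180 or 2 of D90. Ccl12 changed by -1.26 (95% interval -2.09 to -0.42, adjusted p = 0.577). Besides Ccl2 and Ccl7, Ccl3, Ccl4 and Ccl12 had an unadjusted p under 0.05 there in limma, as had 1217 of all 25208 genes in either direction. Ccl5 in control rats changed by 0.20 from D0 to D3 and by 0.23 from D0 to D28, and from D90 to D180 by 0.00 (95% interval -0.27 to 0.27, adjusted p = 1.0). None of these was called. D3 was not tested against D28. Levels of early and late days were not tested against each other, since they lay on different slides, and slide, day and age cannot be told apart there.

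Placed in order of their means, the 10 groups ran from exposed D3 and exposed D0 at the top to control D180 at the bottom for Ccl2, Ccl7 and Ccl12. Ccl2 means fell from 13.18 to 9.74, Ccl7 means from 11 to 7.09 and Ccl12 means from 10.52 to 5.84. Of the 9 steps between neighbours in that order, 8 joined groups whose ranges overlapped, and the 1 step without overlap was the one under exposed D0, with a difference between means of 1.38 for Ccl2, 1.41 for Ccl7 and 1.65 for Ccl12. For Ccl3 the order began with exposed D28, D0 and D3 and ended with control D0 at 12.86, and for Ccl4 it began with exposed D3 and D0 and ended with exposed D90 at 9.60. For these genes and for Ccl5 all 9 neighbouring pairs overlapped. Ccl5 group means stayed between 14.55 and 14.95, with the 2 control groups of D90 and D180 at the top. The order joins groups from different slides, which cannot be told apart from the days. All group means moved by less than 1 SD of their group under scaling to the 75th percentile.

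Within single slides the D0 effect had the same sign on all 4 slides for Ccl2 (2.16 to 3.23), Ccl7 (2.02 to 3.44), Ccl12 (2.38 to 3.57), Ccl3 (0.76 to 1.02) and Ccl4 (0.50 to 0.94), each slide holding 1 or 2 arrays of each group. At D3 the 4 slides that held both groups gave 1.96 to 2.27 for Ccl2, 1.88 to 2.90 for Ccl7 and 1.37 to 4.08 for Ccl12. At D28 Ccl12 was 0.80, -0.67 and 0.66 on the 3 slides with both groups, so its sign turned between slides. At D28 Ccl7 was higher in exposed rats on all 3 slides (0.30 to 1.37). At D90 Ccl2, Ccl12 and Ccl4 were lower on all 3 slides, and at D180 Ccl2, Ccl7 and Ccl12 were higher on all 3.

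**Figure D3:**
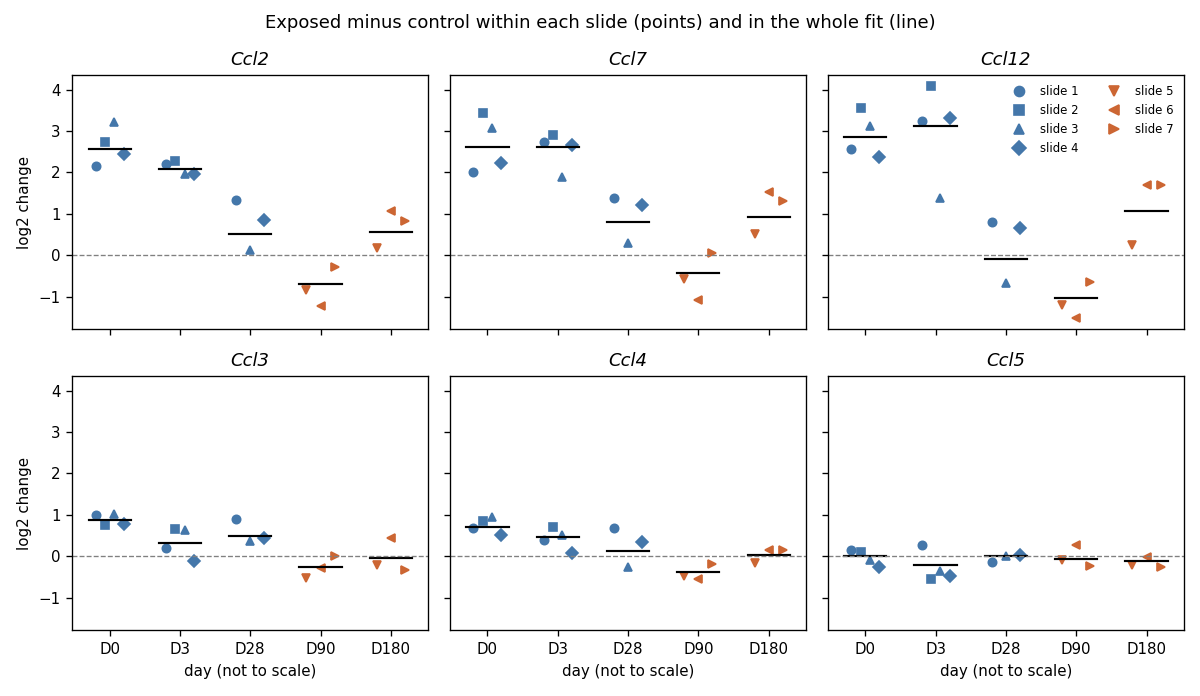
Log2 change, exposed minus control (vertical axis), computed within each slide that held both groups of a day (points, slides 1 to 4 in blue and 5 to 7 in orange) and in the fit over all arrays (black line), by gene and day (horizontal axis). For Ccl2 all 4 slides lie between 2.16 and 3.23 at D0.

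Over the 50 arrays Ccl2, Ccl7 and Ccl12 rose and fell together, with Pearson's r of 0.96 for Ccl2 and Ccl7, 0.93 for Ccl7 and Ccl12 and 0.93 for Ccl2 and Ccl12. These values hold the group differences, and the arrays share slides. With each group's mean taken out, so that differences between rats of the same group were compared, r was 0.80, 0.65 and 0.69 for the same pairs. Among the 25 control arrays alone, Ccl2 and Ccl7 had an r of 0.87 after the group means were taken out. Ccl4 moved with Ccl2 between rats of a group as well (r = 0.66), and Ccl3 less (0.52). Ccl5 ran apart from the other 5 genes, with r from -0.42 to -0.18 over 50 arrays. These values describe the arrays and were not tested.

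The genes most like each chemokine over the 50 arrays, by Pearson's r among 17314 named genes, were these. For Ccl2 they were Gch1 (0.928), Ly6i (0.911) and Dnajb11 (0.896), Gch1 encoding the enzyme that starts tetrahydrobiopterin synthesis. For Ccl7 they were Dnajb11 (0.924), Rhbdl2 (0.908) and P2ry6 (0.903), and for Ccl12 Dnajb11 (0.915), Cxcl11 (0.886) and Slamf9 (0.853). Dnajb11, a chaperone of the endoplasmic reticulum, stood among the 3 nearest of Ccl2, Ccl7, Ccl12 and Ccl4. For Ccl4 the list was Dnajb11 (0.830), Sdf2l1 (0.810) and Gch1 (0.802). Ccl3 was nearest to other genes, Egr2 (0.817), Scimp (0.812) and Rgs1 (0.810), of which Egr2 encodes a transcription factor that is induced early on stimulation. Ccl5 was nearest to Gzmk (0.897), Gzma (0.801) and C1qtnf6 (0.799), Gzmk and Gzma encoding granzymes of T and NK cells. With group means taken out, r was 0.822 to 0.886 for the 3 genes nearest to Ccl5 and 0.591 to 0.792 for those nearest to Ccl3. For those of the other 4 genes it ran from 0.306 for Ccl4 with Gch1 to 0.609 for Ccl12 with Dnajb11, and it was 0.464 for Ccl2 with Gch1.

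Ccr2, the receptor of Ccl2, Ccl7 and Ccl12, was 5.86 ± 0.26 in control and 7.00 ± 0.17 in exposed rats at D0, a change of 1.14 (adjusted p = 3.77e-11), and 4 of the 5 control arrays were well above background. Exposed Ccr2 was at a like level at D3, 6.97 against 6.60 in control rats, and its exposure effect there differed from that at D0 by -0.78 (adjusted p = 0.00228).

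Ccr1, which Ccl3, Ccl5 and Ccl7 bind, was 8.77 ± 0.20 in control and 8.97 ± 0.33 in exposed rats at D0 and was called at no day, with changes from -0.01 to 0.20. Ccrl2, an atypical receptor of the family, was likewise not called, and its changes ran from -0.33 at D90 to 0.12 at D3. Ccr3, a receptor of eosinophils, was well above background on at most 2 arrays of any group, and Ackr2, which takes up and degrades inflammatory CC chemokines, on at most 4. Neither was called at any day.

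**Figure D4:**
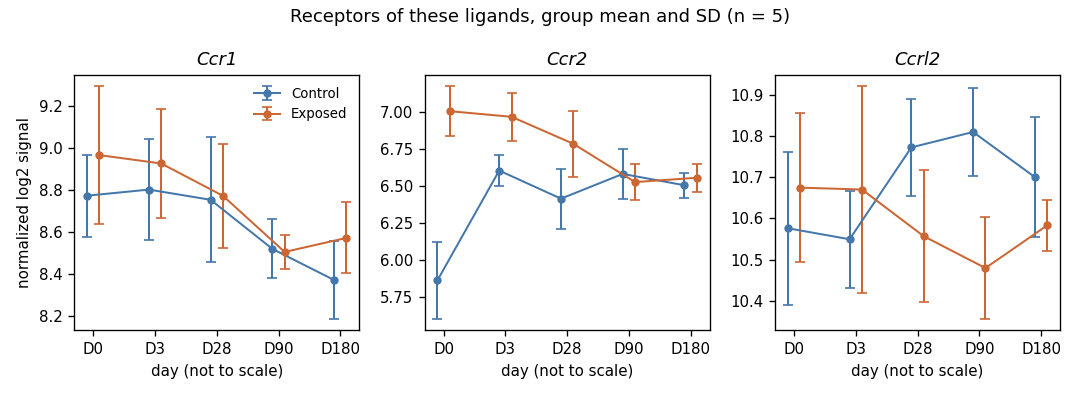
Normalized log2 signal (vertical axis) of 3 receptors by day (horizontal axis), as group mean and SD of 5 control (blue) and 5 exposed (orange) rats, each panel on its own scale. Ccr2 in control rats was 5.86 at D0 and 6.60 at D3, while in exposed rats it was 7.00 and 6.97.

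Among the 13 other CC chemokine genes measured, 6 rose at D0 and none fell, 4 rose and 1 fell at D3 (Ccl11 at -0.81, adjusted p = 8.22e-04, named after its values were seen), and 2, 1 and 1 rose at D28, D90 and D180. Of all genes, 2.77% rose at D0 and 1.98% at D3. The median change of the 13 at D0 was -0.02, beside 1.71 for the 6 monocyte-attracting genes and -0.01 for all genes. Ccl1, a ligand of Ccr8 that neighbours Ccl12 on the chromosome, was not well above background on any control array of D0 and was at least 9.89-fold higher in exposed rats (adjusted p = 3.98e-13). This bound sets the exposed mean against the lowest detected signal of each control array. Ccl1 was called at every day, and its changes at D90 and D180 were 1.94 (adjusted p = 4.70e-04) and 2.77 (adjusted p = 7.61e-07), with 3 and 1 of 5 control arrays well above background. Ccl22 and Ccl17, ligands of Ccr4, rose at D0 by 1.51 (adjusted p = 1.62e-12) and 1.48 (adjusted p = 1.09e-12). At D3 they stood at 1.49 (adjusted p = 5.17e-12) and 1.25 (adjusted p = 2.45e-10), and at D28 Ccl22 was still called (0.61, adjusted p = 0.00214).

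Genes of the pathways known to act on these chemokines were counted beside them. Of all genes, 2.77% rose at D0 and 1.98% at D3, and the median change over all genes was -0.01 on both days. Of 13 NF-kappaB signal genes 3 rose at D0, 4 at D3 and none later, with a median change of 0.42 at D0. Tnf, the cytokine that drives this pathway, rose by 1.77 (adjusted p = 4.76e-08) at D0 and 1.31 (adjusted p = 3.23e-05) at D3 and was at -0.74 (adjusted p = 0.109) at D90. Bcl3, a nuclear partner of NF-kappaB, rose by 0.73 (adjusted p = 6.86e-04) at D0. Il6, the remaining 1 of the 3, passed the test at D0 and was not well above background on any array of that day, so no fold is given. Of 11 interferon signal genes 3 rose at D0 and 6 at D3, and their median change was 0.16 and 0.68. Cxcl10 and Cxcl11, ligands of Cxcr3, rose by 1.19 (adjusted p = 0.00293) and 1.83 (adjusted p = 2.96e-05) at D0 and by 2.29 (adjusted p = 1.20e-07) and 2.72 (adjusted p = 1.39e-08) at D3, Cxcl11 being well above background on 1 of 5 control arrays at D0. Irf8, a transcription factor of the monocyte lineage, rose by 0.64 (adjusted p = 0.00318) at D0. Of 4 colony stimulating factors 1 rose at each of D0 and D3. At D0 it was Csf2 (0.76, adjusted p = 5.59e-05) and at D3 Csf1 (0.59, adjusted p = 0.00709), Csf1 missing the fold limit at D0 (0.57, adjusted p = 0.00828) and Csf3 being at -0.08 (adjusted p = 0.964).

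Markers of the cells that make or follow these chemokines were counted at each day. Of all genes, 2.77% rose at D0, 1.98% at D3, 0.861% at D28 and 0.246% at each of D90 and D180, and 1.51% fell at each of D0 and D3. Of 13 markers of monocytes and recruited macrophages 4 rose at D0, 3 at D3, 1 at D28 and none later. Ccr2 stands in this list and among the receptors. Ly6c and Cd14 rose at D0 by 1.09 (adjusted p = 7.40e-13) and 0.92 (adjusted p = 1.33e-11). The summed linear signal of the list at D0 ran from 278017 to 610772 in control and from 298731 to 682377 in exposed rats, which overlapped. This sum varied widely within each arm on the early days, with control medians of 314909 at D0 and 573684 at D3. Its overlap therefore cannot show whether the number of these cells changed. Of 9 markers of resident alveolar macrophages 1 rose and 1 fell at D0, 2 and 1 at D3, and the sum at D0 ran from 33802 to 37677 and from 36265 to 41793. Chi3l1 rose by 1.92 (adjusted p = 1.08e-17) and Ear11 changed by -1.55 (adjusted p = 3.66e-13). Marco, also in this list, was well above background on 5 of 50 arrays, and the other 8 markers were on all 50.

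Among neutrophil markers, 4 of 10 at D0, 3 at D3, 2 at D28 and 1 at each of D90 and D180 rose, and the others were not called. Their sum ran from 40485 to 57021 in control and from 116936 to 161507 in exposed rats at D0, without overlap, and from 41021 to 62503 and from 118521 to 160368 at D3. The 3 with the largest change at D0 were Cd177 (2.43, adjusted p = 5.66e-16), S100a9 (1.69, adjusted p = 1.35e-10) and S100a8 (1.37, adjusted p = 7.96e-09). Of 13 T and NK cell markers 1 rose at D0, Cd3g (0.67, adjusted p = 1.18e-05), with Cd3d at 0.56 (adjusted p = 5.57e-04) and Cd2 at 0.51 (adjusted p = 0.00461), and the sum ran from 15516 to 20977 and from 17697 to 21248. Klrb1 was never well above background. Of 4 B cell markers 1 rose at D0, Cd79b (0.68, adjusted p = 0.0177), and none of these 2 lists was called at later days. No marker of mesothelium or red blood cells was called at D0, and at D3 2 of 5 mesothelial markers, Wt1 (-0.71, adjusted p = 0.0180) and Upk3b (-0.60, adjusted p = 0.0111), fell. The part of these cell markers in the chemokine changes was not tested.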

How the data were processed

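Total lung RNA (100 ng) was labelled with Cy3 and hybridised to 1-colour Agilent arrays, 1 per rat. The deposited scanner files hold linear intensity per spot, which the authors extracted with Agilent Feature Extraction (11.0.1.1 per the file headers) as processed signal with background subtracted and no scaling between arrays. The deposited series matrix holds linear intensity after the authors' own processing and served as an alternative. Control spots and flagged outlier spots were left out, the log2 values of a probe's spots were averaged and arrays were quantile normalized. Probes were kept (29549) if 5 or more arrays read them over the 95th percentile of that array's negative controls, and the probe with the highest mean stood for a gene (25208 genes). limma 3.58.1 in R 4.3.3 (data.table, version 1.17.8) fitted 10 group means over 50 arrays, with Benjamini-Hochberg adjustment over all genes. A call needed an adjusted p under 0.05 and a 1.5-fold change. Tables and figures were made in Python 3.11.15 with numpy 2.4.6, pandas 2.3.3 and matplotlib 3.10.9. The number of arrays limits the precision. In simulated data over 25208 genes for the D0 comparison, 68% of genes changed by 1 on the log2 scale and 94% of those changed by 2 were called, with 8 false calls.

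The 6 genes and all lists (receptors, other CC chemokines, NF-kappaB and interferon genes, colony stimulating factors, and markers of monocytes, alveolar macrophages, neutrophils, T and NK cells, B cells, mesothelium, red blood cells and lung epithelium) were chosen with earlier results of these data known. Values are printed for the 6 genes, for the receptors (1 is not reported here) and for up to 3 genes of each other list, those with the largest change at D0, and for the 3 genes most like each of the 6. Other genes are named as chosen after their values were seen. Alternatives were scaling to the 75th percentile, normal-exponential background correction (offset 50), no filter, a filter on probes well above background on all 5 arrays of a group, the median over probes, slide or replicate number as a block, only the arrays of the days compared, no fold limit, the series matrix values, and leaving out each array.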

Additional observations from a re-analysis of the deposited data

Results flagged for a closer look

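For 12 results the exposure effect at a later day differed from that at D0 by the interaction test in limma (adjusted p under 0.05 and 1.5-fold), all with the same D0 rats. The arrays of D90 and D180 lay on other slides than those of D0. The log2 difference of Ccl2 was -2.04 at D28, -3.24 at D90 and -1.98 at D180. That of Ccl7 was -1.82, -3.04 and -1.69 at the same days, and that of Ccl12 was -2.94 at D28 and -3.89 at D90 (-2.17 and -2.62 with normal-exponential correction, still called). Ccl3 differed by -1.13 at D90 and -0.91 at D180, and Ccl4 by -1.09 at D90 and -0.69 at D180.

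Ccl5 in control rat 3 at D3 stood above the other 4 rats of its group, its gap to the next rat being 0.719 of the group's range. It was the only 1 of 60 sets of 5 rats past the 95% limit of Dixon's test, and chance gives about 1 in 20.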

How the results depend on the processing

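Of the 6 genes, 5 were called at D0 and 3 at D3 in every setting run, also without any 1 array, except that dropping the fold limit made it 4 at D3. At D28 the count of 0 became 1, Ccl7, under normal-exponential correction, the stricter filter, slide as a block and the series matrix values (0 to 1 without 1 array). At D180 the count of 0 became 1, Ccl7, under the stricter filter and slide as a block (0 to 1 without 1 array). In control rats the count from D90 to D180 was 1 and became 2 under the stricter filter and slide as a block, and 0 with only those days' arrays (0 to 2 without 1 array), and from D0 to D28 it was 0 to 1 without 1 array. Signs turned for values near 0, none of them called. The D3 difference of Ccl7 from D0 was 0.176 under normal-exponential correction and 0.155 in the series matrix (-0.19 to 0.17 without 1 array). Ccl12 at D28 was 0.0419 with slide as a block (-0.43 to 0.18). Without 1 array, Ccl3 at D180 ran from -0.14 to 0.0375 and Ccl4 at D180 from -0.0734 to 0.0799. Ccl5 at D0 was -0.0185 under normal-exponential correction, -0.0293 with slide as a block and -0.0045 in the series matrix (-0.0616 to 0.0898), and at D28 -0.0203 with slide as a block (-0.0385 to 0.0971). The D28 difference of Ccl5 from D0 was -0.0404 under 75th percentile scaling (-0.0762 to 0.0837). Ccl5 in control rats from D90 to D180 was -0.0281 under that scaling, -0.0248 under normal-exponential correction and -0.0369 in the series matrix (-0.0619 to 0.0477). The cause was not tested. Over all genes, 1079 were called at D0, against 582 under normal-exponential correction, 664 in the series matrix and 3406 with no fold limit. At D3 the count was 878, against 478, 534 and 2628 in the same order and 529 with only the arrays of that day. At D28 it was 335, against 140, 160 and 978 and 121 with that day alone. Slide as a block gave 152 in place of 96 at D90 and 140 in place of 82 at D180, no fold limit 264 and 225, and normal-exponential correction 51 at D180. For the differences from D0 at D3, D28, D90 and D180, slide as a block gave 314, 646, 851 and 902 in place of 171, 405, 548 and 565, no fold limit 657, 951 and 1005 at the last 3, and only those days' arrays 85 and 248 at D3 and D28. In control rats, D3 against D0 gave 587, against 264 under normal-exponential correction, 310 in the series matrix and 1855 with no fold limit, and D28 against D0 gave 627, against 300, 346 and 1784. D180 against D90 gave 5, against 23 with slide as a block and 2 with only those days' arrays. The replicate numbers did not pair the rats (r from -0.339 to 0.449 over 25 pairs of same-numbered rats, 8 over 0.1), and with the replicate number as a block 5 of the 6 genes were called at D0 and 3 at D3. Precision is limited by 5 arrays per group.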
